A study of Vitis vinifera with 11 samples.

Results

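The chitinase genes CHI4C (gene number 100232911), CHI4D (100233107) and CHI1B (100233089) of grapevine (Vitis vinifera) were followed through inflorescences, tendrils and leaves. These 3 were taken by gene number from the 25771 genes of the deposited tables. Their own levels chose them: CHI4C for its increase along the inflorescence nodes, CHI4D and CHI1B for being highest in leaves. The node series in inflorescences and each organ's difference from leaves are therefore described for these 3 genes without a test.

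Chitinases cut chitin, the polymer that stiffens fungal cell walls and the cuticle of arthropods and that plants do not make, and they belong to the pathogenesis-related (PR) proteins that plants accumulate under attack. Class I enzymes, to which CHI1B belongs by name, carry a chitin-binding domain before the catalytic domain and are mostly held in the vacuole. Class IV enzymes, to which CHI4C and CHI4D belong by name, resemble them but are shorter. In grapevine, class IV chitinases are best known as abundant proteins of the ripening berry that pass into juice and wine, where they cause haze.

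The 11 messenger RNA libraries, single-end Illumina, held 6 of inflorescences, 3 of tendrils and 2 of leaves, all from immature shoots grown under the same light and temperature regime. Inflorescences came from nodes 1, 2 and 3, counted from the shoot apex, of the picovine lines 06C021V0046 and 06C008V0003, with 1 library of each line per node. Picovines are dwarf vines that bear inflorescences along the shoot where other vines bear tendrils. The control vine Pinot Meunier L2 gave 1 library of tendrils at each node. Each of the 2 leaf libraries, of 06C021V0046 and of Pinot Meunier L2, was a pool over the 3 nodes. Organ and plant therefore cannot be told apart between inflorescences and tendrils, since no plant gave both, and only 06C021V0046 gave both inflorescences and leaves. The labels name no separate plants within a line, so the spread at a node is that between the lines.

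Values are reads per kilobase of gene, scaled to library size (RPKM), as deposited by the authors. Working back from the values gave 7.36 to 15.18 M mapped reads per library and, for the chitinases, 5 to 6007 reads. The 5 floral organ genes checked, MADS9, TM6, AP3, AG and MADS2, stood at 61.1 to 950.5 RPKM in inflorescences, at 0 to 0.692 in tendrils and at 0 to 3.85 in leaves. Of the 2 chloroplast genes, NDHM separated the leaf pools (36.3 and 27.5 RPKM, against 4.88 to 12.1 elsewhere) and PSBP1 did not (337 and 637 RPKM in leaves, 95.99 to 868 elsewhere). In such whole organs, fewer cells of a type and less transcript per cell cannot be told apart.

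CHI4C was a scarce transcript at inflorescence node 1 and among the abundant ones at node 3, where it ranked 276 in 06C021V0046 and 1445 in 06C008V0003 among all 25771 genes. In 06C021V0046 inflorescences it stood at 2.37 RPKM at node 1, 66.9 at node 2 and 398 at node 3. In 06C008V0003 inflorescences it stood at 0.718, 22.0 and 94.96 RPKM at the same nodes. Both lines thus showed the gradient at each step, and no library of a later node overlapped with an earlier one.

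The larger fold step of CHI4C lay between nodes 1 and 2. The level at node 2 was 28.3 times that at node 1 in 06C021V0046 (95% counting interval 19.7 to 42.2) and 30.6 times in 06C008V0003 (16.9 to 62.0). The level at node 3 was 5.95 times that at node 2 in 06C021V0046 (5.52 to 6.41) and 4.31 times in 06C008V0003 (3.81 to 4.90). The wide intervals of the first step come from the 30 and 11 reads at node 1. Ranked by change from node 1 to node 3 among the 19761 genes tested, CHI4C was number 15 in 06C021V0046 and number 49 in 06C008V0003. CHI4C was chosen for this increase, so a high rank was built in.

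Outside inflorescences CHI4C was flat and low in tendrils and moderate in leaves. The tendril libraries held 2.30, 2.71 and 2.63 RPKM at nodes 1, 2 and 3, all within each other's counting intervals. The leaf pools held 17.1 RPKM in 06C021V0046 and 14.7 in Pinot Meunier L2. Ordered by mean, inflorescence node 3 came first, followed by node 2, leaves, tendrils and node 1, and of the neighbours in that order only tendrils and inflorescence node 1 overlapped.

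**Figure D1:**
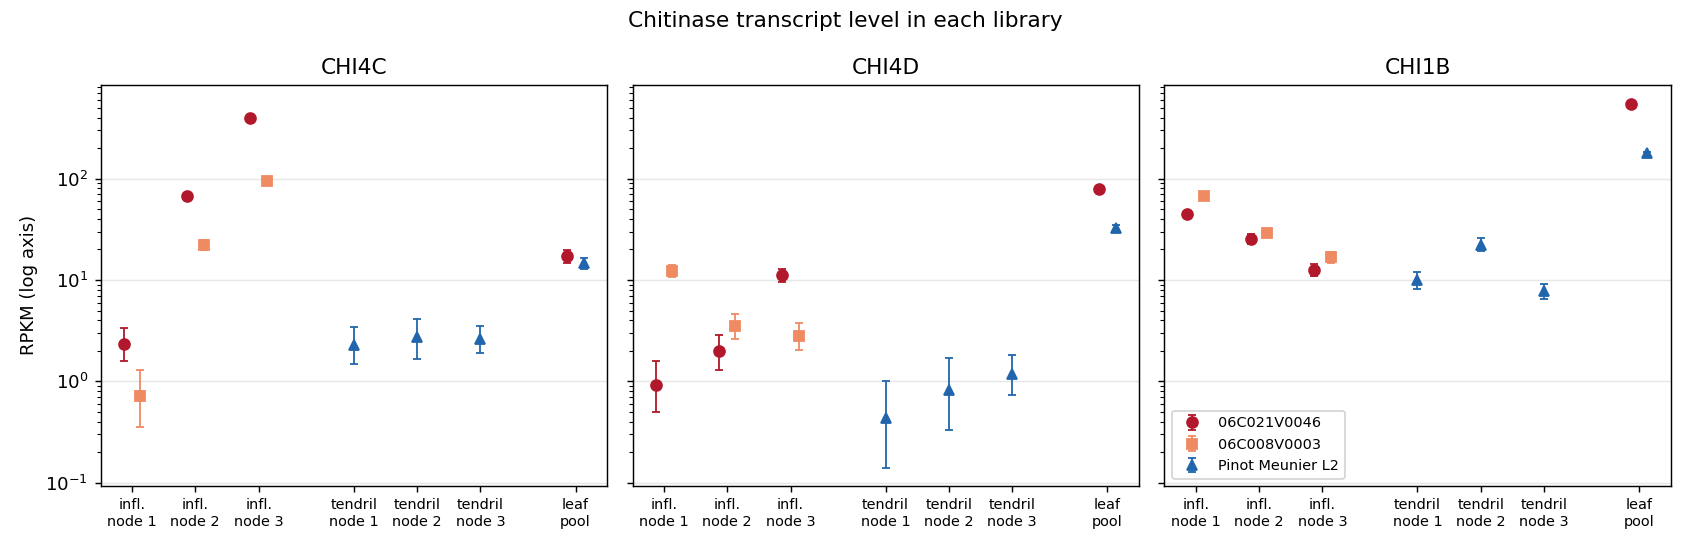
RPKM (log axis) of CHI4C, CHI4D and CHI1B in each library, by organ and node, with the plant as colour and marker and bars for the 95% counting interval. CHI4C runs from 2.37 and 0.718 RPKM at inflorescence node 1 to 398 and 94.96 at node 3, while CHI4D and CHI1B are highest in the leaf pools.

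CHI1B showed the opposite order along the inflorescence. In 06C021V0046 it stood at 44.6, 25.3 and 12.5 RPKM at nodes 1, 2 and 3. In 06C008V0003 it stood at 67.2, 29.1 and 16.7 RPKM. The levels were lower at each successive node in both lines, without overlap between nodes, and the node 3 level was 0.280 times that of node 1 in 06C021V0046 (0.238 to 0.329) and 0.249 times in 06C008V0003 (0.217 to 0.285).

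In tendrils CHI1B peaked at node 2, with 9.99, 22.3 and 7.71 RPKM at nodes 1, 2 and 3. The leaf pools stood far above both organs, at 540.4 RPKM in 06C021V0046 and 178 in Pinot Meunier L2. With those levels CHI1B ranked 118 and 529 among all 25771 genes of the 2 leaf libraries. In order of mean, leaves came before inflorescence nodes 1, 2 and 3, each clear of the next, and only the lowest pair, inflorescence node 3 and tendrils, overlapped.

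CHI4D was low outside leaves and had no gradient common to the lines. In 06C021V0046 inflorescences it stood at 0.932, 1.98 and 11.1 RPKM at nodes 1, 2 and 3, and in 06C008V0003 at 12.2, 3.52 and 2.81. The 2 lines ran in opposite directions along the shoot. Tendrils held 0.435, 0.822 and 1.196 RPKM on 5, 7 and 21 reads, and the leaf pools held 79.2 RPKM in 06C021V0046 and 32.4 in Pinot Meunier L2. Leaves were clear of every inflorescence and tendril library, and the 3 inflorescence nodes overlapped with one another.

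Within the same line or vine the leaf excess of CHI4D and CHI1B was found at every node, with each node set against the same leaf pool. In 06C021V0046, inflorescences of nodes 1, 2 and 3 had 0.0118, 0.0250 and 0.140 times the CHI4D level of the leaf pool, and 0.0826, 0.0468 and 0.0232 times its CHI1B level. For CHI4C the same ratios were 0.138, 3.90 and 23.2, so that it passed the leaf level between nodes 1 and 2. In Pinot Meunier L2, tendrils had between 0.0135 and 0.0370 times the CHI4D level of their leaf pool, between 0.0433 and 0.125 times its CHI1B level, and between 0.157 and 0.185 times its CHI4C level.

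The combined level of the 3 genes therefore changed its make-up along the inflorescence. CHI1B made up 93.1% of the summed RPKM at node 1 in 06C021V0046 and 83.8% in 06C008V0003. At node 2 CHI4C held 71.0% in 06C021V0046 and 40.3% in 06C008V0003, where CHI1B still held 53.3%. At node 3 CHI4C held 94.4% and 82.9% in these lines. The sum itself was 47.9, 94.2 and 422 RPKM at nodes 1, 2 and 3 in 06C021V0046 and 80.1, 54.6 and 115 RPKM in 06C008V0003. In tendrils (11.5 to 25.9 RPKM in sum) and leaves (637 and 225 RPKM) CHI1B held between 66.8% and 86.3%.

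**Figure D2:**
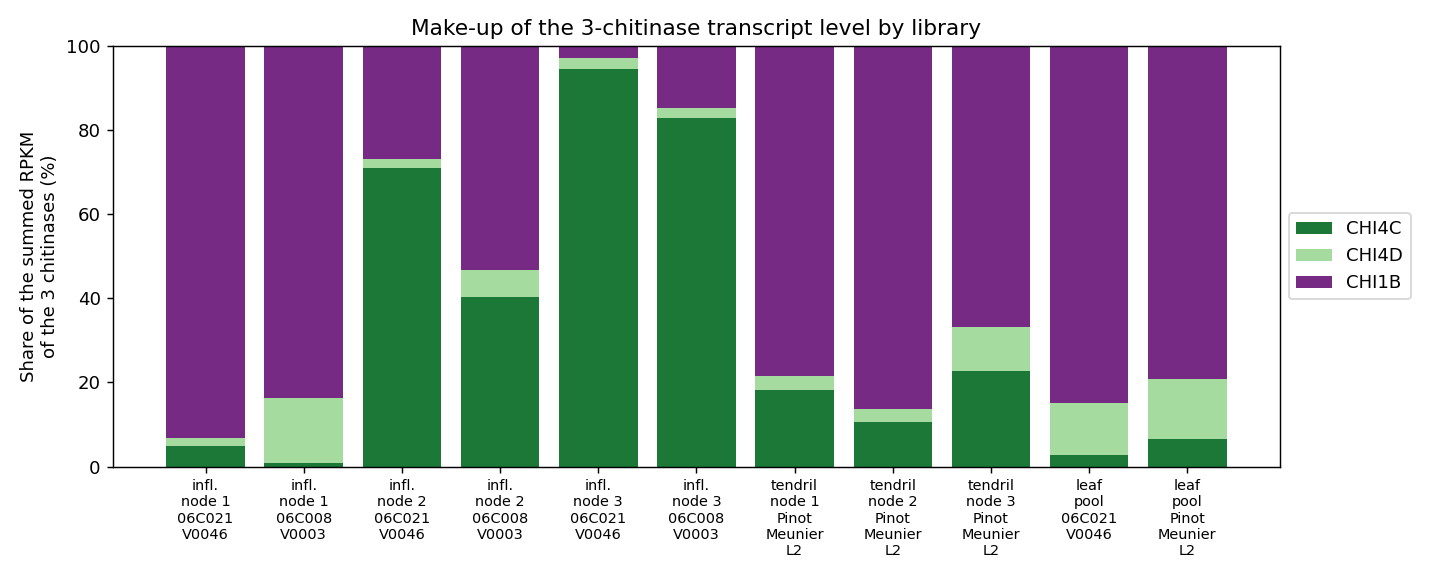
Share of each chitinase in the summed RPKM of the 3 genes (%), one stacked bar per library. CHI1B leads at inflorescence node 1, in tendrils and in leaves, and CHI4C leads at node 3 with 94.4% in 06C021V0046 and 82.9% in 06C008V0003.

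The inflorescence and tendril levels were compared in one model over all libraries, with a linear slope on node position in each organ (limma on log2(RPKM + 1), Benjamini-Hochberg adjustment over 19761 genes, threshold 0.05, two-sided). Node position was centred at node 2, so with every library in the fit each of these organ levels was its mean over the 3 nodes. All 3 chitinases passed the filter of 1 RPKM in at least 2 libraries. CHI4C and CHI1B were higher in inflorescences and CHI4D did not pass, beside 22.5% of all genes tested that were called higher in inflorescences, 11.6% called lower and 34.1% called in either direction. That split rests on the scaling: 66.0% of the calls were higher in inflorescences as deposited, 53.0% with quantile normalization and 49.2% with median-ratio scaling, which moved the median of all genes from 0.21 to 0.06 and 0.01 on the log2 scale. The inflorescence libraries compared here are also those whose node order chose CHI4C. This fit took libraries of different nodes of 1 line or vine as replicates. Its p-values therefore do not measure the spread between plants.

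CHI4C differed by 2.90 ± 0.51 on the log2 scale (SE, 6 inflorescence and 3 tendril libraries, adjusted p = 0.00227). The inflorescence libraries of nodes 2 and 3 stood at 22.0 to 398 RPKM. Those of node 1 stood at 2.37 and 0.718 RPKM and did not exceed the tendril range of 2.30 to 2.71. With plant added as a block the difference was 3.45 and the call ended (adjusted p = 0.127). No plant gave both organs, so the block links them only through the leaf pools, with 1 library of each plant. It takes the difference between these pools to hold in the other organs, which was not tested. The leaf levels that chose CHI4D and CHI1B thus enter their differences with the block.

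CHI1B averaged 32.6 ± 20.3 RPKM in inflorescences (SD over nodes and lines, n = 6) and 13.3 ± 7.86 in tendrils (n = 3), a log2 difference of 1.15 ± 0.38 (adjusted p = 0.0396). The organs overlapped, since the node 2 tendril, at 22.3 RPKM, exceeded both inflorescence libraries of node 3. At node 2 itself the inflorescence libraries stood at 25.3 RPKM in 06C021V0046 and 29.1 in 06C008V0003. The difference was 0.31 without the tendril library of node 1 or of node 3 (adjusted p = 0.671 and 0.672) and turned to -0.64 with the block (adjusted p = 0.806). The fits without tendril node 1 or node 3 both took the tendril level from the node 2 library alone, so they are the same check. The CHI1B call also ended with quantile normalization, median-ratio scaling, a pseudocount of 5, no filter, node as a shared factor, and without any 1 of 5 inflorescence libraries, all but 06C021V0046 at node 1 (adjusted p between 0.0502 and 0.0838).

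CHI4D averaged 5.43 ± 4.92 RPKM in inflorescences and 0.818 ± 0.380 in tendrils. The log2 difference of 1.48 ± 0.60 missed the threshold (adjusted p = 0.0784), was -0.0675 with the block (adjusted p = 0.991), and passed with a pseudocount of 0.1 (adjusted p = 0.043) or without 06C021V0046 at node 1 (adjusted p = 0.0337). The CHI4D level of 06C021V0046 at node 1, 0.932 RPKM, lay within the tendril range of 0.4355 to 1.196. The remaining inflorescence libraries stood at 1.98 to 12.2 RPKM.

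Among tendrils the change per node was tested in the same model. The log2 slopes were 0.07 ± 0.51 for CHI4C, 0.31 ± 0.60 for CHI4D and -0.17 ± 0.38 for CHI1B, each with an adjusted p of 1. With 1 library per node limma called 0 of 19761 genes (0%) for this slope, and 971 genes (4.91%) had an unadjusted p under 0.05. Without the tendril library of node 1 the count was 1180. CHI1B was not linear over the tendril nodes: the node 2 library had 2.24 times the level of node 1 (1.76 to 2.86), and node 3 had 0.345 times that of node 2 (0.274 to 0.434).

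The picovine lines were compared within the 6 inflorescence libraries, with node as a factor, and of the 3 chitinases CHI4C alone was called. It was higher in 06C021V0046 than in 06C008V0003, with ratios of 3.29 at node 1 (1.60 to 7.28), 3.04 at node 2 (2.66 to 3.48) and 4.19 at node 3 (3.95 to 4.45). The log2 difference was 1.53 ± 0.20 (limma, n = 3 libraries a line, 1 per node, adjusted p = 0.00706). That p-value reflects the spread of the line difference over nodes, not the spread between separate plants of a line. Of genes tested, 19.7% were called in either direction, 8.76% were called higher in 06C021V0046 and 2161 genes were called lower. With median-ratio scaling 66.3% of the calls were higher in 06C021V0046, against 44.5% as deposited. The CHI4C call ended without the filter (0.0861), with node as a linear term (0.0755) and without the node 2 library of 06C021V0046 (0.0645) or of 06C008V0003 (0.0629), with differences of 1.51 to 1.53. Leaving out either library of a node removes that node from the line difference, so the last pair is the same check.

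CHI1B gave ratios of 0.665 at node 1 (0.601 to 0.735), 0.869 at node 2 (0.7495 to 1.007) and 0.747 at node 3 (0.619 to 0.901). The node 2 interval includes equal levels. Its log2 difference of -0.39 ± 0.12 missed the threshold (adjusted p = 0.0664), beside a median of -0.11 over all genes tested. CHI4D gave ratios of 0.0762 at node 1 (0.0399 to 0.133), 0.561 at node 2 (0.337 to 0.914) and 3.94 at node 3 (2.84 to 5.57), and its mean difference of -0.57 ± 0.71 was not called (adjusted p = 0.578). The 2 class IV genes thus gave opposite line ratios at nodes 1 and 2 and like ratios at node 3.

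In leaves the plants were 06C021V0046 and Pinot Meunier L2, with 1 library each and no replicate check. CHI1B and CHI4D were higher in the 06C021V0046 pool, with ratios of 3.03 (2.90 to 3.17) and 2.45 (2.20 to 2.73). CHI4C was close between the pools, at a ratio of 1.17 (0.953 to 1.43). Of the genes tested, 1.17% had a larger log2(RPKM + 1) difference than CHI1B and 2.51% a larger one than CHI4D. Whether the pools were of leaves at equal positions is uncertain, because the labels place both opposite inflorescences while the collection protocol has Pinot Meunier L2 bearing tendrils at these nodes.

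**Figure D3:**
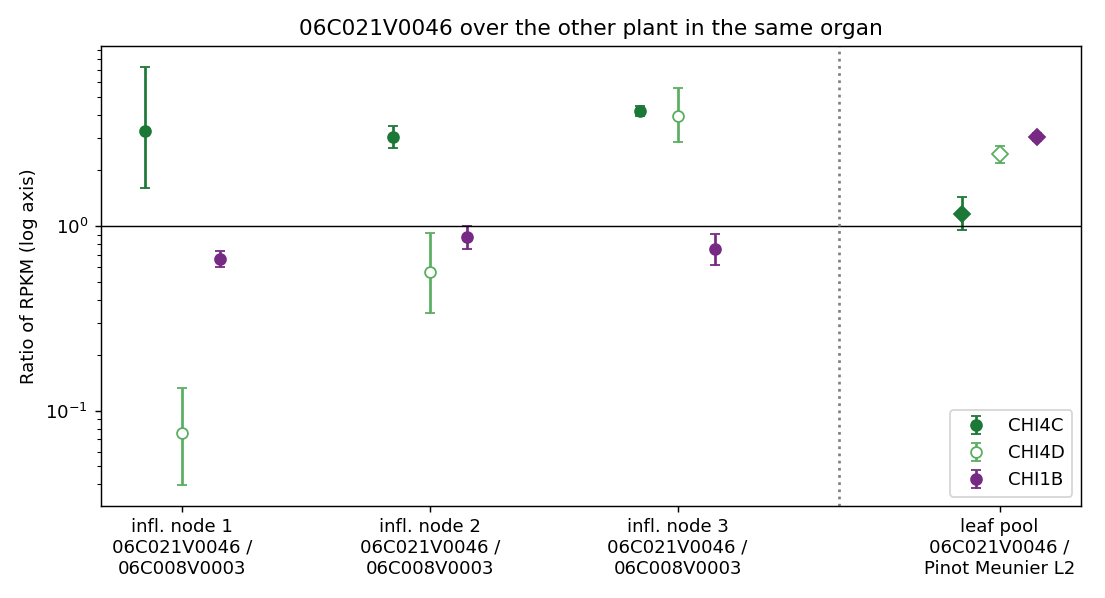
Ratio of RPKM (log axis) in 06C021V0046 over 06C008V0003 at each inflorescence node (circles) and over Pinot Meunier L2 in the leaf pools (diamonds), with 95% counting intervals and a line at equal levels. CHI4C lies between 3.04 and 4.19 at all 3 nodes, CHI4D moves from 0.0762 at node 1 to 3.94 at node 3, and CHI1B lies below 1 in inflorescences and at 3.03 in leaves.

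The other PR genes with a name gave a background for these patterns. The list held 15 genes: the class I chitinase chit1a, PR1 and PR-1 of the PR1 family, the beta-1,3-glucanase G1, the thaumatin-like genes TL1 and TL3, 8 PR10 genes, and the stilbene synthase VINST1, which makes the antifungal resveratrol. VINST1 is a defence enzyme and not of a PR family, and is counted with the PR genes here. All 15 passed the filter. The naming table gives no product names, so further chitinases known only by a locus number were not counted.

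Chit1a was highest in leaves like CHI1B, and shared its order along the inflorescence in 06C008V0003 but not in 06C021V0046. It stood at 13.5, 9.58 and 12.7 RPKM at nodes 1, 2 and 3 in 06C021V0046 and at 20.4, 9.54 and 5.87 in 06C008V0003. The tendril libraries held 2.70, 10.06 and 3.82 RPKM, with the highest value at node 2 as for CHI1B. The leaf pools held 124 RPKM in 06C021V0046 and 63.2 in Pinot Meunier L2, above every other library. Chit1a was lower than in leaves by 2.88 ± 0.45 on the log2 scale in inflorescences (adjusted p = 0.0021) and by 3.94 ± 0.50 in tendrils (adjusted p = 0.000734), and its slope along inflorescence nodes was not called (-0.43 ± 0.27, adjusted p = 0.29).

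Of the 15 genes, 10 were lower in tendrils than in leaves and 0 higher, beside 9.71% of genes tested called lower, 2.89% called higher and 12.6% called in either direction. Their median log2 difference was -3.39 against -0.14 over all genes tested, and 23.0% of all calls were higher in tendrils as deposited, 41.6% with quantile normalization and 37.4% with median-ratio scaling. The largest were those of PR1 (-8.43 ± 0.57, adjusted p = 1.99e-05), G1 (-5.77 ± 0.37, adjusted p = 1.73e-05) and PR10.3 (-5.08 ± 0.80, adjusted p = 0.00239). When the fit held tendrils and leaves alone, 4 of the 15 were called. In inflorescences 6 of 15 were lower than in leaves and 0 higher (7.55% of genes tested called lower, 5.39% higher and 12.9% either way), led by PR-1 (-3.27 ± 0.29, adjusted p = 9.16e-05), chit1a and G1 (-2.21 ± 0.33, adjusted p = 0.00177). The chitinases CHI4D and CHI1B, with -3.37 ± 0.69 and -3.43 ± 0.44 in that contrast and -4.85 ± 0.77 and -4.57 ± 0.49 in tendrils, stood on the same side, given here without a test.

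Between inflorescences and tendrils 10 of 15 were higher in inflorescences and 0 lower, with a median of 1.17 against 0.21 over all genes tested. Among all genes tested 22.5% were called higher, 11.6% lower and 34.1% in either direction, and the share of higher calls was 66.0% as deposited and 49.2% with median-ratio scaling. PR1 led (7.35 ± 0.44, adjusted p = 5.3e-06), followed by PR10.3 (4.37 ± 0.62, adjusted p = 0.000729) and G1 (3.56 ± 0.28, adjusted p = 2.93e-05). With the block, which rests on the leaf pools, 1 of 15 was called, PR1. Without the tendril library of node 1 or of node 3 the count was 5, and both fits took the tendril level from the node 2 library alone. The summed level of the 14 PR genes other than chitinases was 1426 to 3315 RPKM in inflorescences, 52.1 to 253 in tendrils, and 4817 (06C021V0046) and 1481 (Pinot Meunier L2) in leaves. Of these 14 genes, 0 to 2 were at 0 in an inflorescence library, 3 to 5 in a tendril library, and 3 and 1 in those leaf pools. The heat stress genes moved the other way: HSP101 stood at 1.45 to 13.7 RPKM in inflorescences, 229 to 557 in tendrils and 25.7 and 251 in those leaf pools, and HsfA2 at 17.3 to 23.4, 108 to 128, and 7.32 and 72.4 RPKM. The part of these stress genes in the organ differences of the chitinases was not tested.

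**Figure D4:**
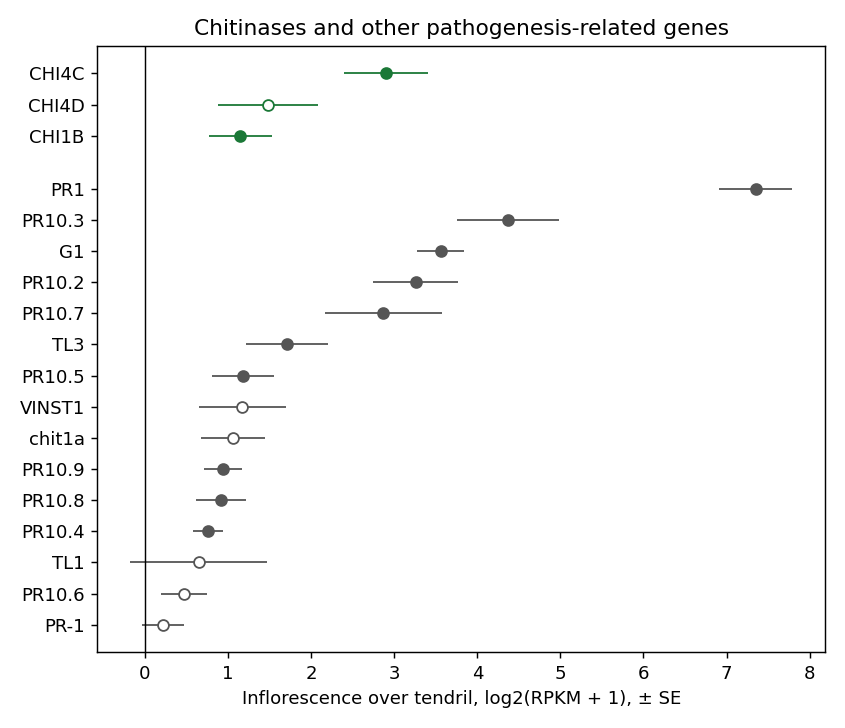
Log2 difference of log2(RPKM + 1) between inflorescences and tendrils, ± SE, for the 3 chitinases (green) and 15 other PR genes (grey), filled where the limma call passed. CHI4C (2.90) and CHI1B (1.15) are called, CHI4D (1.48) is not, and CHI4D and CHI1B change sign, to -0.0675 and -0.64, with plant as a block.

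Along the inflorescence nodes 4 of 15 were called higher at later nodes and 0 lower, beside 6.34% of genes tested called higher, 8.64% called lower and 15% called in either direction. All 4 were PR10 genes. PR10.5 had a log2 slope of 1.45 ± 0.26 per node (adjusted p = 0.0128), with at most 0.433 RPKM at nodes 1 and 2 and 9.02 and 7.26 RPKM at node 3 in 06C021V0046 and 06C008V0003. PR10.6 (0.91 ± 0.19, adjusted p = 0.0183) and PR10.9 (0.60 ± 0.16, adjusted p = 0.0369) reached 3.33 and 2.14 RPKM at node 3 in 06C021V0046. The count was 0 without either node 3 library, and 1 without either node 1 library. CHI4C, chosen for its increase, had 3.17 ± 0.36 per node without a test, a larger slope than any of the 15. CHI4D had 0.21 ± 0.42, and CHI1B had -0.92 ± 0.27.

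Between the lines 1 of 15 was called, TL1, which was higher in 06C021V0046 (1.92 ± 0.36, adjusted p = 0.0184), beside 8.76% of genes tested called higher there. At nodes 1, 2 and 3 the TL1 level was 16.1, 1.54 and 12.6 RPKM in 06C021V0046, against 1.00, 0.150 and 3.72 in 06C008V0003. It therefore shared with CHI4C the higher level in 06C021V0046 at each node, but not the gradient. The call of TL1 ended without the filter, with node as a linear term, and without any library of node 2 or 3 (adjusted p between 0.0555 and 0.188).

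Likeness of pattern was measured as Pearson's r of log2(RPKM + 1) over the 11 libraries, which share organ, plant and depth, and is given as a description. For CHI4C the named genes most like it were GA20ox1, a gibberellin synthesis enzyme (0.927), HT5, a hexose transporter (0.906), and PMT2, a polyol transporter (0.905), and the most alike genes with a locus number were LOC100243555 (0.965) and LOC100248872 (0.958). These 3 named genes ranked only 21, 46 and 48 by r, behind genes without a name, since 309 genes in all had one. LOC100243555 had 14.3, 34.5 and 81.8 RPKM at nodes 1, 2 and 3 in 06C021V0046, against 10.48, 21.7 and 49.9 in 06C008V0003, a gradient like that of CHI4C over a smaller range. Its tendril levels were 9.56 to 11.3 RPKM.

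For CHI4D the most alike named genes were PSV368 (0.932), PR10.8 (0.930) and CWINV, a cell wall invertase (0.918), and those with a locus number LOC100240811 (0.986) and LOC100263073 (0.979). For CHI1B they were chit1a (0.959), EDS1, a regulator of defence signalling (0.943), and MLO11, a member of the MLO family that governs susceptibility to powdery mildew (0.930), with LOC100248148 (0.994) and LOC100264305 (0.981). By r the named genes ranked 49, 58 and 77 for CHI4D and 7, 27 and 46 for CHI1B. LOC100248148 was lower than CHI1B in every library and also highest in leaves, at 144 and 54.7 RPKM in the 06C021V0046 and Pinot Meunier L2 leaf pools and at 2.84 to 21.3 RPKM in inflorescences. Spearman's rho chose 3 of the same 5 genes for CHI4C, 1 for CHI4D and 0 for CHI1B, so all these lists rest on the measure used, those of the leaf-high genes most. For CHI4C the shared genes were the named ones, and neither LOC100243555 nor LOC100248872 was chosen.

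Among the 3 chitinases, CHI4D and CHI1B were most alike (r = 0.826, rho = 0.664), and CHI4C was unlike both (0.266 with CHI4D and -0.08 with CHI1B). These values follow in part from the choice of the genes, since CHI4D and CHI1B were both taken for high leaf levels. Within 06C021V0046 inflorescences CHI4D was higher at each successive node, as CHI4C was, while CHI1B was lower. In the assembly used for names the 2 class IV genes lie close together on 1 chromosome, with 1 gene between them that has no row in the tables used here. The gene on the other side of CHI4D, LOC100252703, had its highest levels in leaves like CHI4D (5.08 RPKM in 06C021V0046 and 1.56 in Pinot Meunier L2, at most 0.762 elsewhere), while the gene on the other side of CHI4C, LOC100262956, varied only between 7.90 and 19.5 RPKM over all libraries.

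CHI1B has a direct neighbour, LOC100266184, whose gene spans 1577 bases in that assembly, the same as CHI1B. That neighbour stood at 0.813 to 4.59 RPKM in inflorescences, 0.688 to 2.41 in tendrils, and 4.65 and 5.09 in the 06C021V0046 and Pinot Meunier L2 leaf pools, so its leaf levels lay close to those of inflorescence node 1 (4.11 and 4.59). These neighbours were picked by position after the values had been seen. How reads shared between near-identical gene copies were counted is not given in the sources used here, so any sharing of reads between these genes and similar copies is uncertain.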

How the data were processed

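Messenger RNA of 11 grapevine libraries was sequenced single-end on Illumina, per the labels' protocols. The authors deposited 1 RPKM value for each of 25771 genes per library. The submitters' processing notes list Bowtie 0.12.7 and TopHat 1.2.0. Genome build, annotation and counter are not given in the sources used here, so no gene position is printed. Names came from the RefSeq table of ASM3070453v1 (72.4% of gene numbers found, 309 with a name).

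Reads were worked back from RPKM as whole multiples per library (99.4% of 24365 genes above 0, tolerance 0.01 read). Intervals (95%, exact Poisson for levels and exact conditional binomial for ratios) cover counting error only, and reads carried no molecular identifiers.

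limma 3.58.1 in R 4.3.3 was run on log2(RPKM + 1), which understates changes of low genes, over 19761 genes with at least 1 RPKM in at least 2 libraries, with a variance trend. The fit over all 11 libraries had 6 residual and 4.54 prior degrees of freedom. The line difference was fitted over the 6 inflorescence libraries alone and had fewer residual degrees of freedom. The script was tested on simulated data. P-values measure the spread between these libraries. The fit over all 11 libraries took nodes of 1 line or vine as replicates, for the chitinases and for the other PR genes. Alternatives (pseudocount, filter, scaling, block, node terms, subsets and each library left out) are reported in the closing section. In inflorescences the replicate number stands for the line (1 is 06C021V0046, 2 is 06C008V0003), and elsewhere it does not mark a plant. The line difference correlated across genes between nodes (0.629, 0.546 and 0.689), so plant as the labels name it, not the number, was the block in an alternative fit (called the replicate block).

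The genes, lists and tests were chosen with earlier results of these data known. Named genes were the 3 chitinases; for each, the 3 named and 2 unnamed genes of highest Pearson correlation; other chitinases; and, among other PR genes, the called ones with the 3 largest changes per comparison. Neighbours, and the list genes named for their line ratios in the closing section, fall outside that rule and were chosen after their values were seen. Protein and promoter sequences were not used here.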

Additional observations from a re-analysis of the deposited data

Results flagged for a closer look

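The line difference of CHI4D lay on opposite sides of equality at different nodes, each beyond its 95% counting interval. The ratio of 06C021V0046 over 06C008V0003 was 0.0762 at inflorescence node 1, 0.561 at node 2 and 3.94 at node 3, with 13 against 206 reads at node 1 and 184 against 46 at node 3. Each node has 1 library per line, and the difference between nodes was not tested.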

How the results depend on the processing

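Over all alternatives, 372 values of named genes were recomputed with a test, of which 327 kept direction and call, 37 lost the call, 2 gained it and 6 changed sign. Values that were not called in either fit count among those kept. Leaving out an inflorescence or leaf library could not change a tendril slope, and the list genes were picked for their large called changes. The kept count therefore overstates how stable the results are. CHI4D (-0.0675) and CHI1B (-0.64) changed sign between inflorescences and tendrils with the replicate block, which links these organs through the leaf pools alone. CHI4D did so between the lines without either node 1 library (0.53, range over left-out libraries -1.69 to 0.53). Those are the same check, since leaving out either library removes that node from the line difference. The others were the CHI4C tendril slope without node 1 (-0.0323 to 0.17) and the CHI1B tendril slope without node 3 (-1.42 to 1.09). No further cause was tested.

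The replicate block changed the count of called genes to 77 between inflorescences and tendrils (6737 without it), 4588 for the inflorescence slope (2960), 1283 between inflorescences and leaves (2556) and 1342 between tendrils and leaves (2490). It called 0 genes for the tendril slope, as without it. With only inflorescence libraries the slope count was 5679, and with only tendril and leaf libraries that contrast had 258. Between the lines 3892 genes were called, 11 with no filter and 751 with node as a linear term. Leaving out 1 library gave 3685 (without tendril node 3) to 7146 between inflorescences and tendrils, 0 to 1180 (without tendril node 1) for the tendril slope, 254 (without 06C021V0046 node 2) to 2364 between the lines, 153 (without 06C021V0046 node 3) to 4529 for the inflorescence slope, 1174 (without the Pinot Meunier L2 leaf pool) to 3254 between inflorescences and leaves, and 1159 (without the 06C021V0046 leaf pool) to 3428 between tendrils and leaves. For the list of 15, the count ran from 1 to 12 between inflorescences and tendrils, 4 to 7 and 4 to 11 against leaves, 0 to 5 for the inflorescence slope and 0 to 1 between the lines.

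Depth limits the low values most: CHI4D in tendrils rests on 5 to 21 reads and CHI4C at node 1 on 30 and 11.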

Other observations

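Several other PR genes shared the line pattern of CHI4D, lower in 06C021V0046 than in 06C008V0003 at inflorescence node 1 and higher at node 3. This held for 7 of the 15 other PR genes (46.7%) and for 2342 of 19761 genes tested (11.9%), counted after the values had been seen and without a test. The 7 were chit1a, TL3, PR10.2, PR10.3, PR10.8, PR10.9 and VINST1. VINST1 had ratios of 0.0702 at node 1 and 5.25 at node 3, close to those of CHI4D, and TL3 had 0.261 and 5.12. At node 3 the ratio was 2.39 for PR10.2 and 2.16 for chit1a, and it was nearer to equality for PR10.9 (1.34), PR10.3 (1.17) and PR10.8 (1.13). Some of these rest on few reads: PR10.9 had 4 over both node 1 libraries and PR10.8 had 15 over both node 3 libraries. PR10.3 had 35.9 RPKM in 06C021V0046 and 259 in 06C008V0003 at node 1, against 42.8 in 06C021V0046 and 36.6 in 06C008V0003 at node 3. CHI4C and CHI1B did not share the pattern.

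In the leaf pools 11 of the 15 other PR genes (73.3%) were higher in 06C021V0046 than in Pinot Meunier L2, beside 52.0% of genes tested.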
